A study of Mus musculus with 3 samples.

Results

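Lysosomal genes were followed in a mouse T-lymphoma line, WR19L, and in flippase-deficient cells derived from it. The set holds 31 genes chosen by function: the transcription factors Tfeb and Tfe3, 5 lysosomal membrane proteins, 8 proteases, 10 glycosidases, lipases and activators, and 6 subunits of the V-ATPase. A probe set, the group of short probes that is read as 1 signal, was taken if its only gene symbol was a listed gene. The one with the highest mean log2 signal stood for its gene. By that rule 30 of the 31 genes had a probe set, out of 18194 genes on the array. Cd63, a tetraspanin of late endosomes, had none in the gene table and has no value here.

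The lysosome is the acidic compartment in which proteins, glycolipids, glycogen and lipids taken up by endocytosis or delivered by autophagy are broken down. The V-ATPase, a proton pump built from a cytosolic V1 sector and a membrane V0 sector, keeps its lumen acidic, and most hydrolases work only at that pH. TFEB and TFE3 are basic helix-loop-helix factors that move to the nucleus when mTORC1 is inactive and bind an E-box element, called CLEAR, near many lysosomal genes.

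Total RNA of 3 kinds of cells, all from WR19L, a line of BALB/c origin, was hybridised to Affymetrix arrays, with 1 array per group and no treatment. The parental array held unmodified WR19L cells. The wild-type array held DKO cells, the flippase-deficient derivative, with stable expression of human ATP11A, a flippase, which carries phospholipids inward across the plasma membrane. The Q84E array held DKO cells with stable expression of the Q84E mutant of ATP11A. Both transgenic lines share the DKO background, and DKO cells without a transgene were not analysed here, so in ratios over parental cells the knockout, the transgene and the derivation of the line cannot be told apart. The sources used here name neither the promoter of the transgene nor whether a line is 1 clone.

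With 1 array per group there is no replicate, SD or p-value, and the number of arrays limits the precision. Values are array signals, with the same trimmed mean on each array as deposited, and a ratio is the difference of 2 log2 signals. The median signal of each array, 50.3 for parental, 50.5 for wild-type and 55.5 for Q84E cells, served as its floor. As a measure of technical error, the log2 ratios of 2 probe sets of the same gene were compared over all genes. Scaled to 1 probe set, their SD was 0.32 to 0.35 for probe sets of signals from the 50th to the 75th percentile, 0.17 to 0.19 from the 75th to the 90th, and 0.095 to 0.11 above the 90th. It does not cover differences between cultures. Of the T cell markers, 10 of 14 with a probe set lay above the floor on every array, and Cd3e, Cd4, Cd5 and Cd6 lay under it. The wild-type array was the lowest for 8 of these 10 markers, against 29.2% of the 9607 genes above the floor on all arrays. The summed signal of the T cell markers other than Lat that lay above the floor was 20656 in parental, 14261 in wild-type and 19513 in Q84E cells. Lat, the brightest marker, gave 16203, 17599 and 16834, highest in wild-type cells. Over all 14 markers with a probe set, Lat included, the sum was 36929, 31925 and 36394. None of the 10 macrophage and monocyte markers, which belong to cells rich in lysosomes, reached the 75th percentile on any array, and their summed signal was 333 to 418.

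The promoters of the set were read first, since the CLEAR element lies near many lysosomal genes. RefSeq promoter windows of 300 bases on GRCm38.p6, from 250 before to 50 after the annotated start, were matched for 28 of the 31 genes, 4 of them with several windows. Each window was searched for the E-box CACGTG and for the longer core TCACGTGA, which contains it; both read the same on either strand. An E-box was present in 10 of the 28 genes, or 35.7%, against 8.09% of the 27025 genes in the promoter table and 11.6% of the 9431 matched genes that were compared on the arrays. The longer core was present in 6 of the 28, or 21.4%, against 1.12% and 2.16%. These shares are descriptions of sequence, with no test, and a match is not evidence that a factor binds there. The motif was chosen because it is known near lysosomal genes, so its higher share in this set is no new support.

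The 10 genes with an E-box were Lamp1, Mcoln1, Ctsa, Ctsd, Ctsl, Glb1, Gla, Gaa, Atp6v0d1 and Atp6v1a. Their windows held 17 E-boxes in all, and 4 of these lay within the last 61 bases before the start of Lamp1. The stretches of the 6 genes with the longer core, and of Lamp1 with its 4 E-boxes, are printed here 5′ to 3′ on the strand of the gene, with each E-box in capitals.
Ctsa: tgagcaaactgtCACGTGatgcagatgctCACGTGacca
Ctsd: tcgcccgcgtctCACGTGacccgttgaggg
Mcoln1: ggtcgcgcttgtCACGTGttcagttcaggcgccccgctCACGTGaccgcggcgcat
Lamp1: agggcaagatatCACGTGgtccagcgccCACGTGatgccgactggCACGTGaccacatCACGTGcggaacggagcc
Gla: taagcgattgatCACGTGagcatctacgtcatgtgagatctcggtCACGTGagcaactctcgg
Atp6v0d1: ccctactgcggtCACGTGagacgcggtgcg
Atp6v1a: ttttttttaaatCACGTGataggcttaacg
On GRCm38.p6 these stretches lie at chr2:164833749-164833787 (plus strand, Ctsa), chr7:142387908-142387937 (minus, Ctsd), chr8:3500436-3500491 (plus, Mcoln1), chr8:13159088-13159163 (plus, Lamp1), chrX:134601182-134601244 (minus, Gla), chr8:105566050-105566079 (minus, Atp6v0d1) and chr16:44139373-44139402 (minus, Atp6v1a). The stretches of Ctsd, Mcoln1, Gla and Atp6v1a lie wholly before the start site, that of Lamp1 reaches 3 bases past it, and those of Ctsa and Atp6v0d1 span it.

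**Figure D1:**
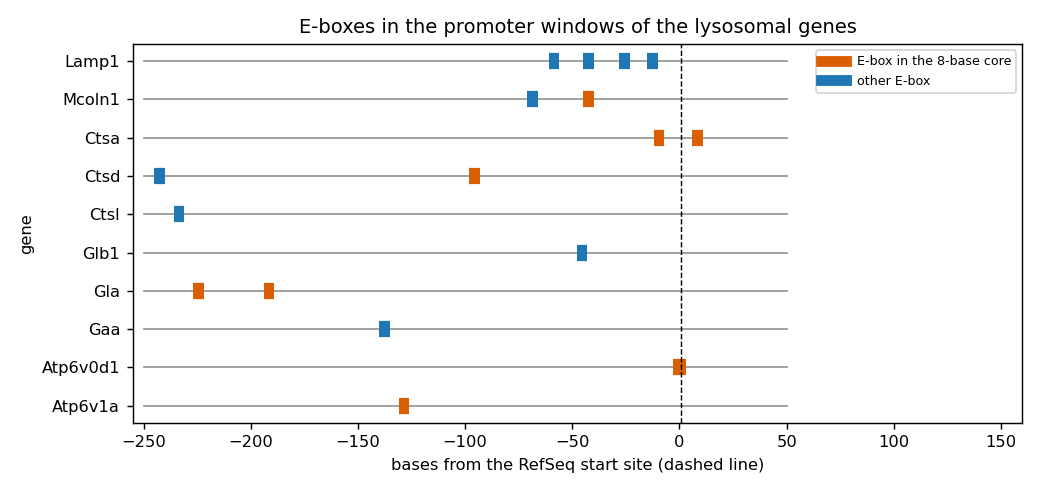
Position of each E-box (coloured block of 6 bases) in the promoter window (grey line, 250 bases before to 50 after the start) of the 10 genes that hold one; orange blocks lie within the 8-base core TCACGTGA and blue blocks do not. The x axis gives bases from the annotated start; the 4 blocks of Lamp1 lie between 61 and 10 bases before it.

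Most of the set was well within the range where the arrays measured precisely. A gene was compared if its signal reached the floor on at least 1 array, and 29 of the 30 genes did. Of those 29, 28 were above the floor on all 3 arrays, 21 above the 75th percentile on all 3, and 8 above the 90th on all 3: Lamp1, Lamp2, Ctsb, Ctsz, Gusb, Psap, Atp6v1a and Atp6v1b2. Ctss, which encodes cathepsin S, a cysteine protease of antigen-presenting cells, lay under the floor on all arrays, at signals of 5.42, 5.11 and 10.2 in parental, wild-type and Q84E cells, and no ratio is given for it. Ctsa was under the floor on the parental array and passed only through both DKO arrays.

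**Figure D2:**
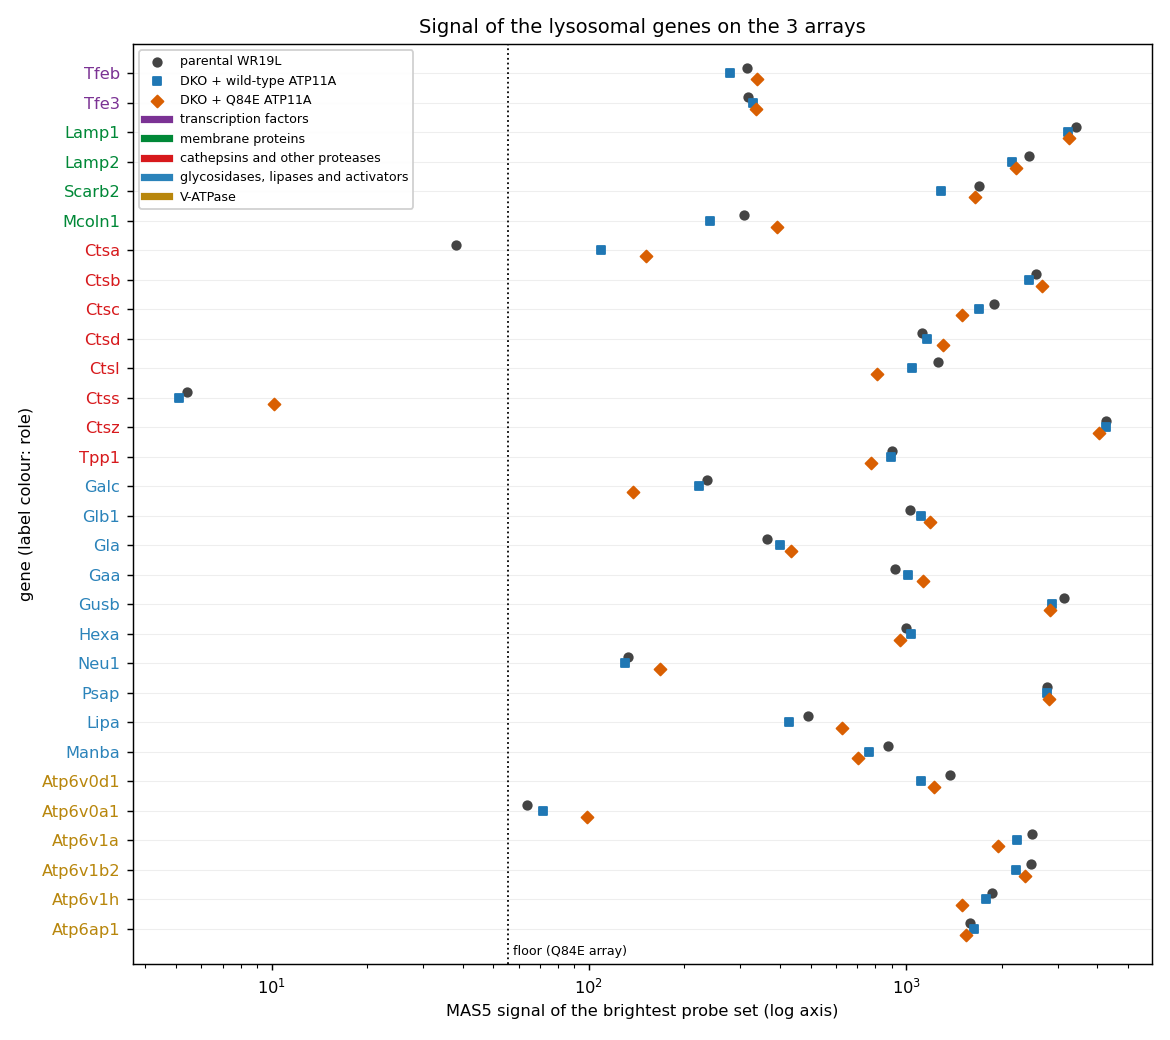
Signal of the brightest probe set (x axis, log scale) of the 30 genes with a probe set, on the parental (circles), wild-type ATP11A (squares) and Q84E ATP11A (diamonds) arrays; label colours give the role. For most genes the 3 points lie close together, while Ctsa is apart on the parental array and Ctss lies left of the floor (dotted line, 55.5).

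How do cells with the mutant protein differ from cells with the normal one in the same background? Q84E cells were set against wild-type ATP11A cells for this. Mcoln1 was 1.63-fold higher and Galc 1.61-fold lower in Q84E cells, and the other 27 of the 29 genes were within 1.5-fold. At least 1.5-fold higher signals were thus found for 1 of 29, against 6.08% of all genes compared, and at least 1.5-fold lower signals for 1 of 29, against 2.08%. With the mean of all probe sets of a gene in place of the brightest, these log2 ratios were 0.35 for Mcoln1 and -0.12 for Galc. Both means include probe sets under the floor, which are set to it. That of Mcoln1 also includes a dimmer probe set above the floor on all arrays, at 0.20. None of the 29 was then past 1.5-fold, and the share of all genes at that setting was not computed. None of the 29 was at least 2-fold apart with the brightest probe set, against 1.08% of all genes higher and 0.336% lower. The median log2 ratio of the 29 was 0.046, beside 0.034 over 11028 genes, with 18 of the 29 above 0 against 55.9% of all genes. With arrays scaled to a common median the values were -0.022 and -0.034, with 14 of the 29 above 0 against 44.5%. That scaling moves all genes of an array alike, so it leaves the gap between the set and all genes as it was.

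The comparison of wild-type ATP11A with parental cells asked how the DKO line with the normal protein differs from the line it came from. Ctsa was the only 1 of the 29 at least 1.5-fold higher, against 3.64% of all genes, and also the only 1 at least 2-fold higher, against 0.581%. Because Ctsa entered through the DKO arrays alone, its count is no support for a difference, and without it no gene of the set was past 1.5-fold. None was at least 1.5-fold lower, against 3.69% of all genes, or 2-fold lower, against 0.920%. The median log2 ratio was -0.069, beside 0.011 over 11196 genes, and 10 of the 29 were above 0 against 52.6% of all genes. With a common median these were -0.10 and -0.022, with 9 above 0 against 45.5%.

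The comparison of Q84E with parental cells shares an array with each of the others and is not a separate result. Those others share the wild-type array, which enters them with opposite signs. Ctsa and Atp6v0a1 were at least 1.5-fold higher, 2 of 29 against 7.72% of all genes, and Ctsl and Galc at least 1.5-fold lower, 2 of 29 against 3.09%. With the mean of all probe sets 2 of the 29 were past 1.5-fold in either direction, a setting at which the share of all genes was not computed. With the brightest, only Ctsa was at least 2-fold higher, against 1.71% of all genes, and none was 2-fold lower, against 0.832%. Ctsa entered through the DKO arrays alone, so its counts are no support for a difference here either. Without it, 1 of 28 was at least 1.5-fold higher and 0 at least 2-fold higher. The median log2 ratio of the 29 was -0.042, beside 0.056 over 11053 genes, with 13 of the 29 above 0 against 57.7%. A common median moved the median of all genes to -0.046 and that of the set to -0.14, with 10 above 0 against 43.2%.

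**Figure D3:**
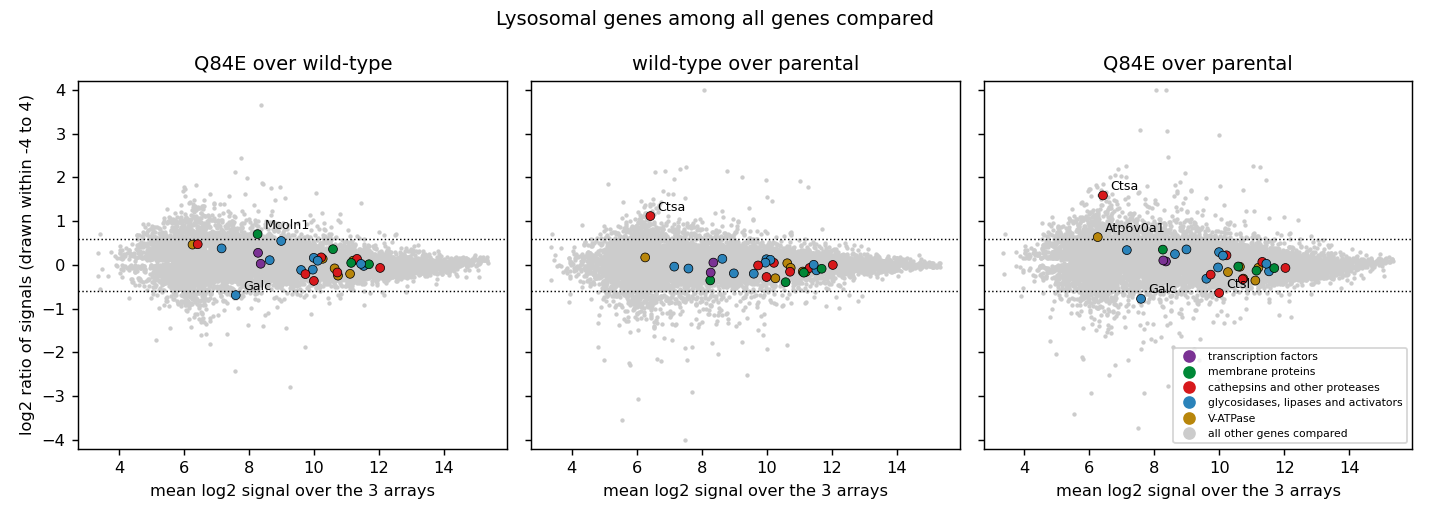
Log2 ratio (y axis) against mean log2 signal over the 3 arrays (x axis) for all genes compared (grey) and the lysosomal genes (coloured by role), 1 panel per comparison; dotted lines mark 1.5-fold. The spread of all genes narrows as the signal rises, and most lysosomal genes lie in the narrow part; those past 1.5-fold are named.

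The size of the ratios was read against genes of like signal. Among the 8 brightest genes of the set, the median absolute log2 ratio was 0.057 in Q84E against wild-type cells, 0.11 in wild-type against parental cells and 0.072 in Q84E against parental cells, beside 0.097, 0.077 and 0.12 over 2791 genes of that range. Among the 14 between the 75th and 90th percentile it was 0.17, 0.13 and 0.23, beside 0.14, 0.12 and 0.18 over 3836 genes. The remaining 7 lay between the 50th and 75th percentile, and all genes past 1.5-fold except Ctsl were among them. In that range 18.2%, 16.4% and 21.8% of all genes were past 1.5-fold in 1 direction or the other, against 2, 1 and 3 of the 7. Ctsa, which entered through the DKO arrays alone, is the 1 in wild-type over parental and among the 3 in Q84E over parental, so nothing is read from these counts.

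Both transcription factors had steady signals. Tfeb gave 315 in parental, 279 in wild-type and 339 in Q84E cells, a log2 ratio of 0.28 for Q84E over wild-type and -0.17 for wild-type over parental. Tfe3 gave 318, 330 and 336. Their signals lay at percentiles 72.3 to 73.8 of the arrays, where the probe set error of 0.32 to 0.35 exceeded each log2 ratio of both genes. TFEB and TFE3 are regulated mainly by their phosphorylation and place in the cell, which arrays do not measure.

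The membrane proteins included the gene furthest up in Q84E over wild-type. By their brightest probe sets, all 4 with a value were above 0 in that comparison and below 0 in wild-type over parental. With a common median, Lamp1 at -0.053 and Lamp2 at -0.022 turned below 0 in Q84E over wild-type. The other probe sets of Lamp2 gave -0.35, -0.041 and -0.16 in Q84E over wild-type. In wild-type over parental they gave 0.063, -0.40 and -0.22, so Lamp2 had no single direction in either comparison. Mcoln1 encodes TRPML1, a cation channel that releases calcium from the lysosome. Its signal was 308 in parental, 241 in wild-type and 392 in Q84E cells, so the wild-type array was lowest and the Q84E array highest. A dimmer probe set of Mcoln1 gave 174, 206 and 236, with the parental array lowest. Its log2 ratio of Q84E over wild-type was 0.20 by that probe set and 0.70 by the brightest, and the wild-type over parental ratio had opposite signs, 0.24 and -0.35. Both probe sets placed Q84E above parental cells, at 0.44 and 0.35, which is near the probe set error of 0.35. The T cell markers were also mostly lowest on the wild-type array, and what part this has in the ratios of Mcoln1 and Scarb2 was not tested.

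Scarb2 encodes LIMP-2, the receptor that carries glucocerebrosidase to the lysosome. Its signal was 1696 in parental, 1290 in wild-type and 1654 in Q84E cells, with the wild-type array apart from the other two. The log2 ratio was -0.40 for wild-type over parental, against a probe set error of 0.17, and -0.11 by its other probe set. Lamp1 and Lamp2 encode heavily glycosylated proteins of the lysosomal membrane, and of these Lamp1 differed little. Lamp1 gave 3435, 3231 and 3265, within a log2 ratio of 0.088 in all 3 comparisons. Lamp2 gave 2431, 2150 and 2219 by its brightest probe set, and its 4 probe sets ranged from -0.44 to -0.13 for Q84E over parental, all below 0.

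Among the 7 proteases compared, 3 were above 0 in Q84E over wild-type, with a median of -0.069, and Ctsl had the lowest ratio. Cathepsin L is a cysteine endopeptidase of the lysosome. Its signal was 1263 in parental, 1042 in wild-type and 810 in Q84E cells, lowest in Q84E cells. The log2 ratio was -0.64 for Q84E over parental, against a probe set error of 0.19, and -0.36 and -0.28 for the steps between. The other probe set of Ctsl lay under the floor on all arrays and gives no second reading. Ctsc, the dipeptidyl peptidase that activates granzymes, had the same order of arrays, at 1885, 1692 and 1501, with a log2 ratio of -0.33 for Q84E over parental.

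Ctsa encodes cathepsin A, the protective protein that holds neuraminidase 1 and beta-galactosidase in a stable complex. Its signal was 38.2 in parental cells, under the floor, 109 in wild-type and 151 in Q84E cells. Both DKO lines lay above the parental array, at least 2.17-fold for wild-type cells and by a log2 ratio of at least 1.59 for Q84E cells. The value rests on 1 of 2 probe sets, at signals where the error is largest, since the other lay under the floor on all 3 arrays. The genes of its partners differed less. Neu1 gave 133, 130 and 168, highest in Q84E cells, and Glb1 gave 1027, 1113 and 1190.

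The other proteases were within 1.5-fold by their brightest probe sets. Ctsb, the most studied cysteine cathepsin, gave 2563, 2443 and 2689, and its second probe set above the floor had ratios of the same sign in each comparison. Ctsd, the main aspartic protease of the lysosome, gave 1123, 1160 and 1307, highest in Q84E cells at a log2 ratio of 0.22 over parental. Ctsz, a carboxypeptidase, gave 4268, 4264 and 4066. Its log2 ratio of Q84E over wild-type was -0.069 by that probe set, and -0.18 and -0.37 by its others. Tpp1, which removes tripeptides from protein ends, gave 900, 893 and 772, lowest in Q84E cells at -0.22 over parental. A dimmer probe set of Tpp1 gave 112, 80.0 and 42.5, the last under the floor, with -0.49 for wild-type over parental and a bound of -1.02, or lower, for Q84E over parental. Within the family, Ctsd lay above 0 and Ctsc, Ctsl, Ctsz and Tpp1 below 0 in Q84E over wild-type under each of the scalings tried, so the proteases had no shared direction.

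Of the 10 glycosidases, lipases and activators, 6 were above 0 in Q84E over wild-type, with a median of 0.059. Galc was the gene furthest down in Q84E cells. It encodes galactosylceramidase, which removes galactose from galactosylceramide and psychosine. Its signal was 235 in parental, 222 in wild-type and 138 in Q84E cells, so the Q84E array stood apart from the other two. The log2 ratio was -0.69 over wild-type and -0.77 over parental, against probe set errors of 0.32 and 0.35 for this range. Of its other probe sets, 1 lay under the floor on all arrays and 1 was above it only in Q84E cells, at 58.1 against a floor of 55.5. As a bound, that probe set gives at least 0.20 over wild-type and at least 0.21 over parental, opposite in sign to the brightest, although it is close to the floor.

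Lipa encodes lysosomal acid lipase, which frees cholesterol and fatty acids from esters. Its brightest probe set gave 490 in parental, 428 in wild-type and 626 in Q84E cells, a log2 ratio of 0.55 for Q84E over wild-type. The other probe sets gave -0.44 and -0.043 for the same ratio, so the 3 probe sets of Lipa disagreed in sign, with a spread of 0.99. That was the widest disagreement of the 11 genes with several probe sets above the floor on all arrays. For Q84E over wild-type the probe sets had 1 sign in 7 of those 11 genes, and their median spread was 0.21.

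The remaining enzymes of glycolipids and glycans were within 1.5-fold but differed in direction. Gaa, acid alpha-glucosidase, which degrades glycogen, gave 924, 1012 and 1132, and both of its probe sets had 0.16 for Q84E over wild-type. Gla, alpha-galactosidase A, gave 364, 401 and 432. Both, like Glb1, were lowest in parental and highest in Q84E cells, with log2 ratios of 0.21 to 0.29 for Q84E over parental. Hexa, the alpha subunit of beta-hexosaminidase, gave 999, 1034 and 959. Manba, beta-mannosidase, had the opposite order, at 876, 763 and 704, with -0.32 for Q84E over parental. Gusb, beta-glucuronidase, gave 3149, 2890 and 2845. Psap, the precursor of the saposins that present sphingolipids to their hydrolases, was the steadiest of the set, at 2775, 2780 and 2825, and its other probe set was within 0.051 in log2 ratio in all 3 comparisons.

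The V-ATPase subunits did not share a direction in Q84E over wild-type, with 3 of 6 above 0 by their brightest probe sets and a median of 0.0083. Atp6v1a, the catalytic subunit of V1, gave 2486 in parental, 2237 in wild-type and 1941 in Q84E cells, a log2 ratio of -0.36 for Q84E over parental, although its other probe set gave -0.10. Atp6v1h, a regulatory V1 subunit, had the same order at 1867, 1781 and 1503, with -0.31. Atp6v1b2, the B subunit that is paired with A in V1, gave 2483, 2220 and 2373. Its log2 ratio of Q84E over wild-type was 0.096 by that probe set and -0.16 by its other one above the floor. For wild-type over parental the signs were also opposite, at -0.16 and 0.043. In the membrane sector, Atp6v0d1 gave 1374, 1112 and 1226, with the parental array highest and -0.30 for wild-type over parental. The accessory subunit Atp6ap1 gave 1591, 1633 and 1546. Atp6v0a1, an a subunit best known from neurons, was dim, at 63.7, 71.7 and 98.9, and its log2 ratio of 0.64 for Q84E over parental came from the only 1 of its 4 probe sets above the floor.

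**Figure D4:**
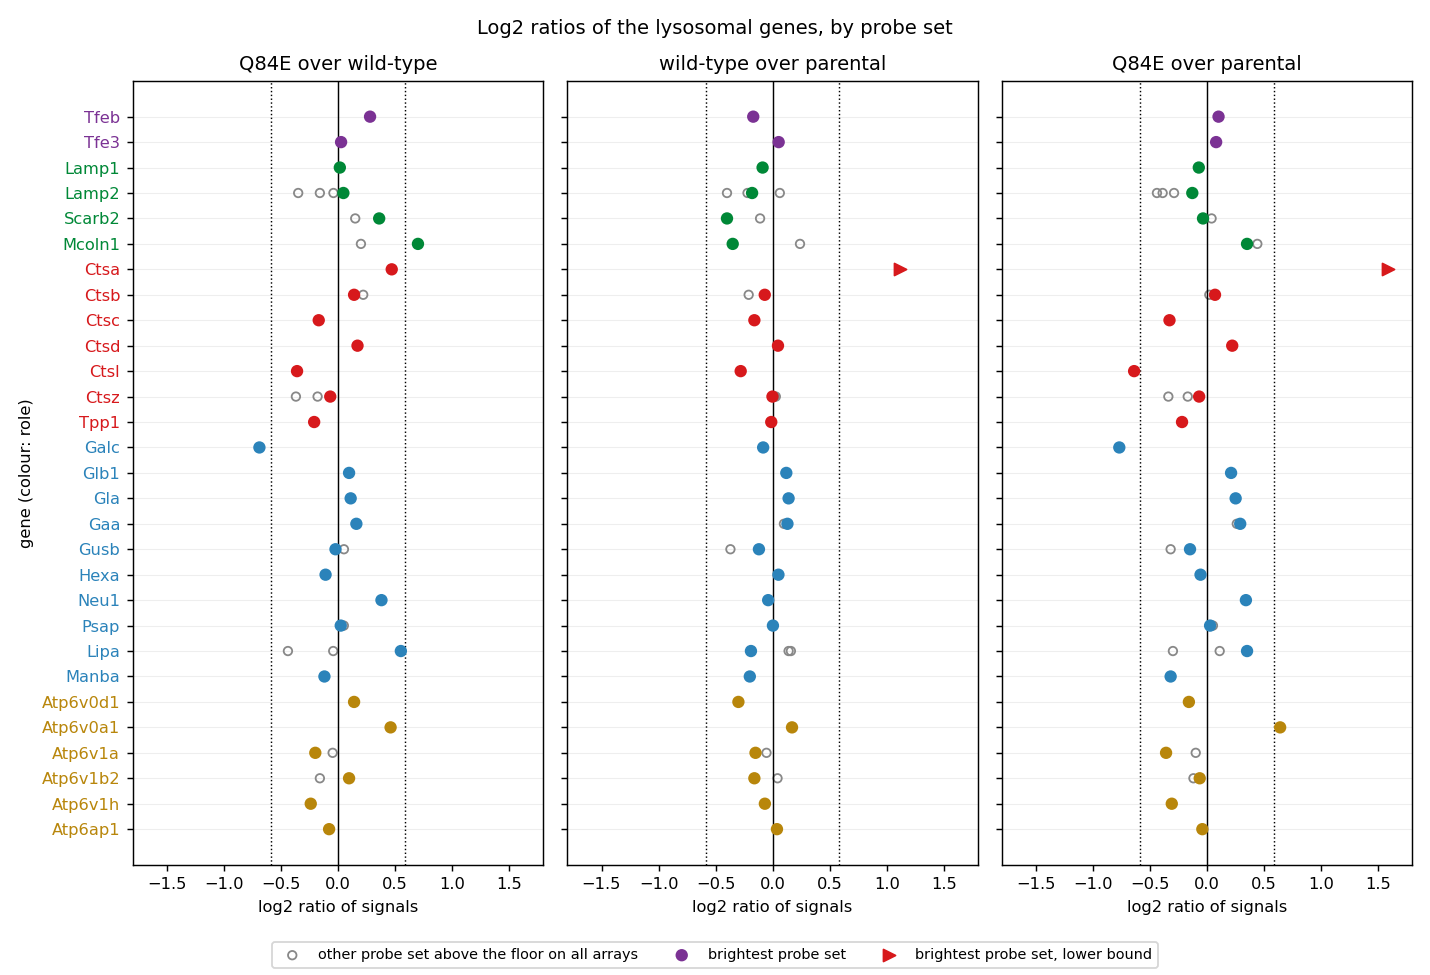
Log2 ratio of signals (x axis) for the 29 genes compared (y axis, coloured by role) in each comparison; filled circles are the brightest probe set, triangles are lower bounds, open circles are other probe sets above the floor on all arrays, and dotted lines mark 1.5-fold. Mcoln1 lies right and Galc left of the dotted lines in Q84E over wild-type, and the open circles of Lipa lie on the other side of 0 from its filled one.

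The genes whose promoters were printed above can be read against these values. In Q84E over wild-type, the 10 genes with an E-box had a median log2 ratio of 0.12 with 8 above 0, and the 16 compared genes with a window but no E-box had 0.00 with 8 above 0. For wild-type over parental the medians were -0.020 and -0.061. For Q84E over parental, which shares its arrays with both, they were 0.21 and -0.050. The E-box group holds Ctsa, which entered through the DKO arrays alone. Ctsa is the highest of that group in both ratios over parental, at bounds of 1.12 and 1.59. Nothing is therefore read from the medians over parental. Both groups overlapped over most of their range: with an E-box the genes of Q84E over wild-type ran from -0.36 for Ctsl to 0.70 for Mcoln1, and without one from -0.69 for Galc to 0.55 for Lipa. Lamp1, with 4 E-boxes, was among the steadiest genes. The difference between the groups was not tested, and the window says nothing of elements further away.

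Other genes of the lysosome were taken from lists of related function. Of 131 genes, 123 had a probe set and 111 were compared. At least 1.5-fold higher or lower in Q84E over wild-type were 4 and 1 of the 110 with a ratio, in wild-type over parental 3 and 2 of 110, and in Q84E over parental 5 and 5 of 111, beside the shares of all genes given above. The median log2 ratios were 0.061, -0.054 and 0.016. An E-box was present in 26 of the 99 with a promoter window, or 26.3%, with shares by list from 0 of 7 autophagy genes and 5 of 25 other hydrolases to 5 of 8 genes of mannose 6-phosphate sorting, the route that brings hydrolases to the lysosome.

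The highest of these genes in Q84E over wild-type, among those that reached the 75th percentile on at least 1 array, was Slc17a5, which encodes the sialic acid exporter sialin. Its signal was 260 in parental, 256 in wild-type and 400 in Q84E cells, with the Q84E array apart, at a log2 ratio of 0.64. It reached the 75th percentile only on the Q84E array, where it is high, at percentiles of 71.6, 71.5 and 75.2, so its place in this order is partly set by the filter. Napsa, an aspartic protease, followed at 0.56 and Aga, which cleaves the link between sugar and asparagine, at 0.52. The lowest were Tsc2, a brake on mTORC1, at -0.50, Mcoln2, a relative of Mcoln1, at -0.44, and Lamtor5, a subunit of the Ragulator complex, at -0.33. Tsc2 gave 547, 506 and 356, lowest in Q84E cells. It was under the 75th percentile on the Q84E array, at percentiles of 79.1, 78.1 and 74.0, so its place is also partly set by the filter. Mcoln2 gave 499, 688 and 507, so the wild-type array was the high one, in contrast to Mcoln1.

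In wild-type over parental, Vps18, a subunit of the HOPS tethering complex, was 2.22-fold lower, at 194 in parental, 87.0 in wild-type and 138 in Q84E cells. Ctns, the cystine exporter, was at least 2.28-fold higher, with 49.8 in parental cells, under the floor, 115 in wild-type and 83.2 in Q84E cells, so it also entered through the DKO arrays. Both are dim. Among brighter genes Mcoln2 at 0.46, the autophagy gene Gabarapl1 at 0.31 and Lamtor2 at 0.27 were highest, and the V-ATPase accessory gene Atp6ap2 at -0.45, Lamtor3 at -0.43 and Sidt2, an RNA channel of the lysosome, at -0.42 were lowest. Atp6ap2 gave 5827 in parental, 4260 in wild-type and 4376 in Q84E cells, so both DKO lines were lower than the parental line.

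In Q84E over parental, Rragd, a Rag GTPase that places mTORC1 on the lysosome and is itself known as a TFEB target, was 2.09-fold lower. Its signal was 135 in parental, 108 in wild-type and 64.5 in Q84E cells, near the floor at the last. Slc17a5 at 0.62, Gabarapl1 at 0.46 and the peptide transporter Abcb9 at 0.45 were the highest of the brighter genes, and Tsc2 at -0.62, Sidt2 at -0.61 and Atp6ap2 at -0.41 the lowest. Like Slc17a5, Abcb9 was under the 75th percentile on the parental array, at 74.8, and passed only through the DKO arrays. Tsc2 was under it on the Q84E array, at 74.0, and passed here through the parental array, where it is high. The 17 other V-ATPase genes had a median log2 ratio of 0.039 for Q84E over wild-type, and none of the 17 was past 1.5-fold there, beside 6.08% of all genes higher and 2.08% lower. In wild-type over parental 1 of the 16 with a ratio was past 1.5-fold, beside 3.64% of all genes higher and 3.69% lower. It was Atp6v1e2, a dim gene named after its values were seen. Its signal was 55.5 in parental, 96.5 in wild-type and 65.7 in Q84E cells, 1.74-fold higher in wild-type than in parental cells.

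**Figure D5:**
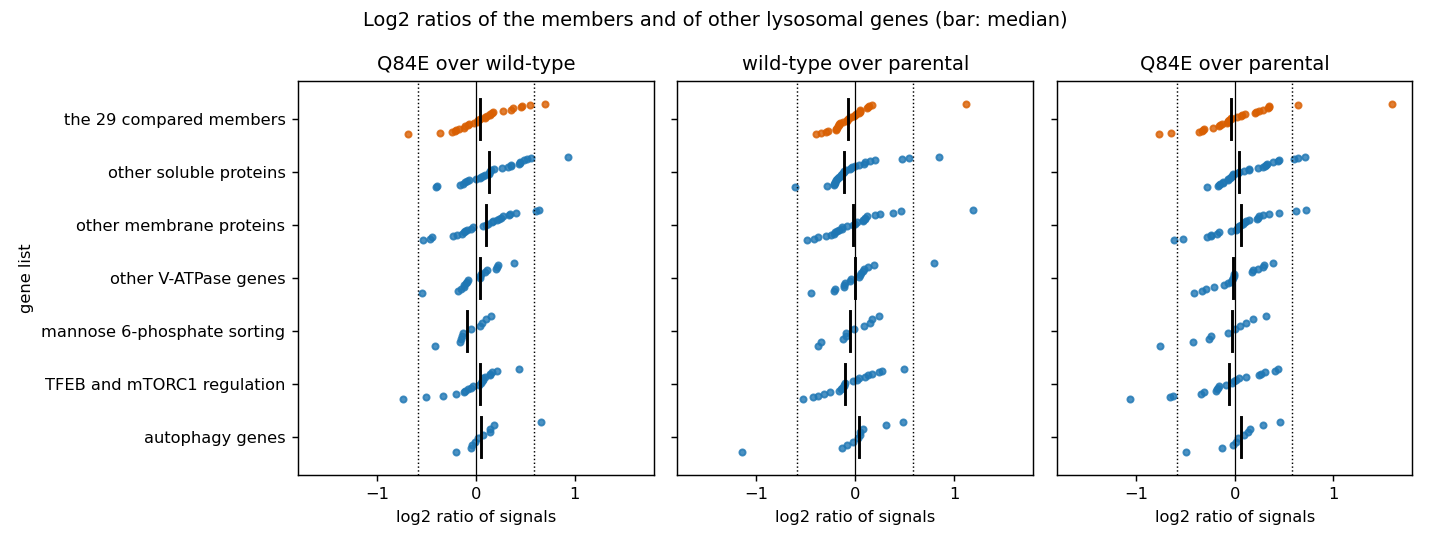
Log2 ratio of signals (x axis) for the 29 compared genes of the set (orange) and 6 lists of other lysosomal genes (blue), 1 point per gene, with a black bar at the median and dotted lines at 1.5-fold. Medians lie near 0 in each list, between -0.11 and 0.14 over the 3 comparisons.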

How the data were processed

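Signals of 3 arrays, 1 per group, were analysed. The values deposited by the authors are linear intensity, 1 per probe set for 45101 probe sets, and MAS5 is the tool named in the submitters' processing notes, without version or settings. Because MAS5 scales each array as a whole, it partly removes a shift shared by most genes. Groups came from the genotype or title in the labels.

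The platform's annotation supplied gene names: 34958 probe sets had 1 symbol, 932 several, which were not used, and the rest are unnamed here. Signals under an array's 50th percentile were set to it. A ratio with 1 level under the floor is a bound, and none was taken where both were, or where the floor set the sign. All 29 compared members are named; of the other lysosomal genes, the 3 highest and 3 lowest per comparison that reached the 75th percentile on at least 1 array, and any at least 2-fold apart. Counts use 1.5-fold and 2-fold limits, with no test. The members and lists were chosen with earlier results of these data known. The ratios, the floor, the fold counts and the choice of the brightest probe set were tested on simulated or made-up values. The promoter search, the probe set error and the changed settings were not. Python 3.11.15, pandas 2.3.3 and numpy 2.4.6 were used.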

Additional observations from a re-analysis of the deposited data

How the results depend on the processing

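Scaling, floor, pseudocount, filter and choice of probe set were varied in 9 ways, and leaving out Ctsa was added after seeing the data. Leaving out a replicate was not possible with 1 array per group, and no filter gave the same values by construction. Of 90 list values, 73 moved by less than 0.1 (medians) or 1.5 times (counts). With a common median of the compared genes the median for Q84E over parental was -0.14. With log2(signal + 50) and no floor, 1 gene was past 1.5-fold in Q84E over wild-type and 0 past 2-fold in wild-type over parental. With the filter at the 75th percentile, which leaves 22 genes of the set, 1.5-fold was passed by 0 genes in Q84E over wild-type, 0 in wild-type over parental and 1 in Q84E over parental, and 2-fold by 0 in the last 2. With the mean of all probe sets, 0, 0 and 2 genes were past 1.5-fold, and again 0 past 2-fold in the last 2. The shares of all genes past these limits were not computed under the changed settings, so nothing about the set is read from these counts. Probe sets named as less specific, ending in _a_at, _s_at or _x_at, were also left out where a gene had another. Then 1 gene, Galc, was past 1.5-fold in Q84E over wild-type. Mcoln1 had no ratio at that setting. Both of its probe sets above the floor, the brightest included, are of the less specific kind, and the remaining one lay under the floor on all arrays. Without Ctsa, 0 genes were past 1.5-fold in wild-type over parental and 0 past 2-fold in that comparison and in Q84E over parental. Over the alternatives the log2 ratio of Galc for Q84E over wild-type ran from -0.84 to -0.12, that of Mcoln1 from 0.35 to 0.70 and that of Ctsl for Q84E over parental from -0.74 to -0.25. No ratio of a gene past 1.5-fold changed sign. The smallest of these ratios in size, for Galc and Ctsl, come from averaging in dimmer probe sets that lie under the floor on some or all arrays. That of Mcoln1 comes from averaging in 1 probe set under the floor and 1 above it on all arrays. The latter gave 0.20 for Q84E over wild-type, so the probe sets of Mcoln1 differ in size also where both were measured. Levels under the floor are set to it, and the floor is higher on the Q84E array, at 55.5, than on the others, at 50.3 and 50.5. A probe set under the floor on both arrays thus adds a positive ratio for Q84E cells. No paired analysis was possible because each group holds 1 array. Genes near the floor have the largest error.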
